A study of Rattus norvegicus with 8 samples.

Results

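The genes that carry a cell through mitosis were followed in primary rat thymocytes after 6 hours with 100 nM dexamethasone (Dex), a synthetic glucocorticoid, or without it (Control). The set was chosen by name: a list of 49 mitotic regulators, checkpoint and spindle genes. Kinesin motors were left out, except Cenpe. Of the 49 genes, 37 were found among the 35561 gene names that the array gives its probes (Cdk1 stands there as Cdc2a and Aurka as Stk6). These 37 genes have 50 probes, and the probe with the highest mean signal over all arrays stands for each gene unless stated. Of the other listed genes, 9 were found only under older names and are described apart, and Nek2, Cdca3 and Anln are not analysed here.

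Each group holds 4 arrays. Both groups came from male Sprague-Dawley rats without adrenal glands, with the thymi of 3 animals pooled per preparation, so that each culture is a pool and no value belongs to a single animal. The age of the rats is not given in the sources used here. No cells were sorted, so the RNA is that of all cells in the culture, and lower signal from fewer cycling cells cannot be told apart from less RNA per cycling cell. RNA was labelled with Cy3 and hybridised to 1-color Agilent whole rat genome arrays. Signals are given as log2 intensity after quantile normalization, and a level is only compared with the same probe on other arrays.

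Mitosis is driven by the kinase Cdk1 bound to cyclins, which the Cdc25 phosphatases switch on. Polo and Aurora kinases build the spindle, the checkpoint proteins hold back the anaphase-promoting complex (APC) until all chromosomes are attached, and the APC then destroys the cyclins and securin. In the thymus mainly immature blasts divide, while most CD4+CD8+ thymocytes are small and resting, and glucocorticoids are known to kill these immature cells. Many genes of this programme are transcribed late in the cell cycle through 2 promoter elements, the cell cycle genes homology region (CHR, letters TTTGAA) and the CCAAT box, which are known to be bound by the MuvB complexes with B-Myb or Foxm1, and by NF-Y.

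Most of the mitotic genes gave less signal with Dex. Their log2 fold change was below 0 for 33 of 37 genes, with a median of -0.39 (a change of -23.9% in signal), while the median of all 41012 probes was 0.00. Of the 37 genes, 36 have a probe well above background on all 8 arrays (Cdc25a does not), and 32 of these 36 lay below 0, against 52.4% of all probes so measured. For 12 of the 37 genes all 4 Dex arrays lay below all 4 Control arrays, which held for 4.51% of all probes and for 7.02% of the probes above background on every array. No gene of the set had all Dex arrays above all Control arrays.

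The differences were small, and no gene of the set passed the test across all probes. With limma, 0 of 37 genes had an adjusted p under 0.05, a threshold that 0.778% of all probes passed in either direction. The smallest adjusted p was 0.13, for Cdk1. At an unadjusted p under 0.05, 13 genes were lower and 0 higher, against 4.92% of all probes that were lower at that threshold. The study's own statistic divides the difference in mean signal by the summed SDs of both groups, and at a nominal p of 0.01 and a fold of 1.2 it called 12 genes lower and 0 higher, against 3.20% of all probes called lower. As rerun here it called 2784 probes in both directions together. That is many more than the genes the study reported, so these calls do not stand for the study's list. The count of 13 was 1 with scaling to the 75th percentile, 8 without Control 4 and 7 without Dex 4. It was 20 with normexp background correction and also 20 with the slide as a random block. With the replicate number as a block it was 10, since Bub1, Ect2 and Espl1 no longer passed. No count is given with the slide as a fixed block, which compares 1 array of each group. Shares of all probes at this threshold were not computed for these settings. The calls over all probes moved too: at an adjusted p under 0.05 by limma, 88 probes were lower in the main fit, 33 with scaling, 418 with normexp and 722 with the random block. The count of genes below 0 stayed between 32 and 35 over all those fits.

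**Figure D1:**
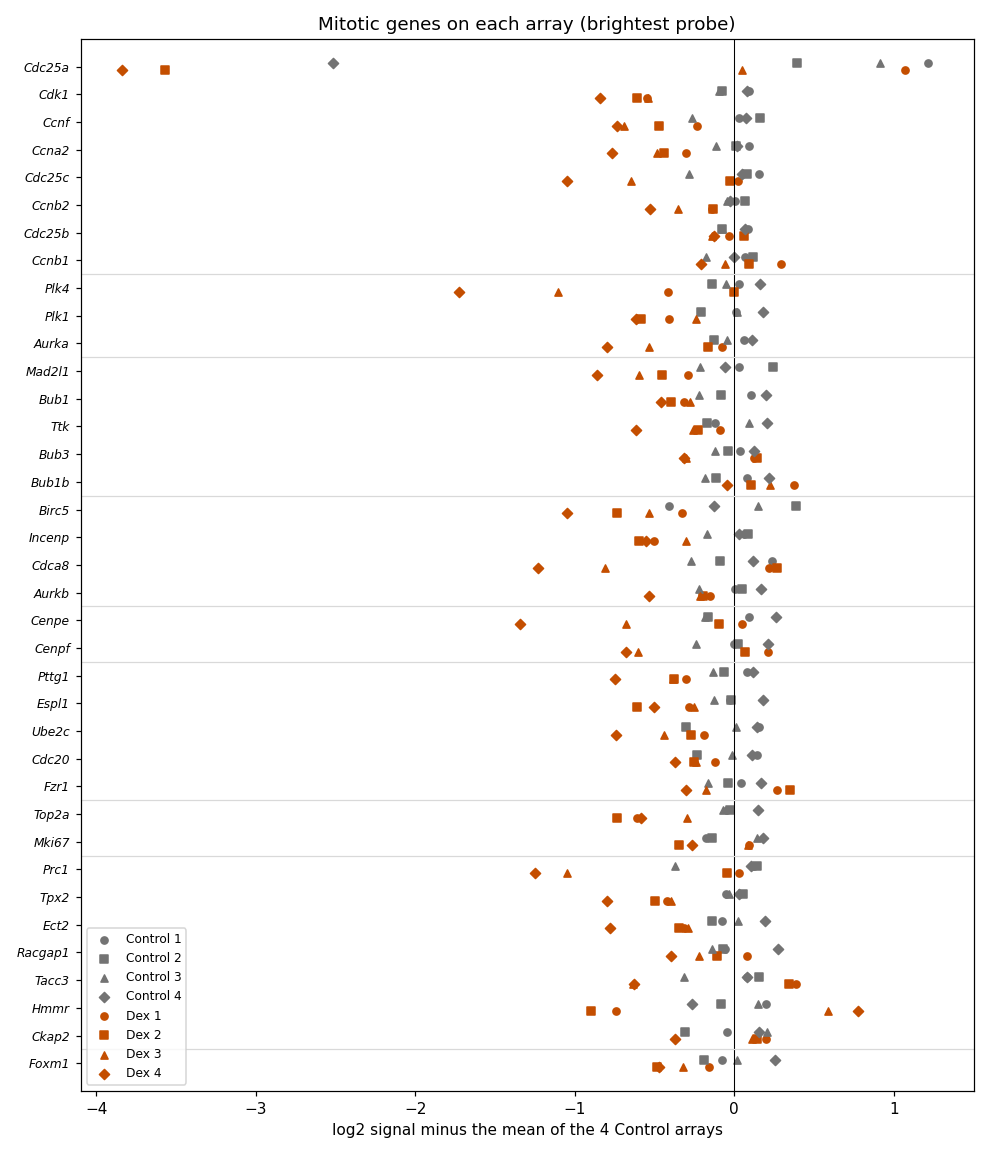
Signal of the 37 mitotic genes on each array (log2 scale, minus the mean of the 4 Control arrays, brightest probe), grouped by role with grey lines between groups. Grey symbols are the 4 Control arrays and orange symbols the 4 Dex arrays, and for 12 genes, among them Cdk1, Top2a and Tpx2, every orange symbol lies left of every grey one.

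The promoters of 6 genes are printed as examples of windows that hold both of these elements or only 1 of them. Cdk1, Ccnb2, Pttg1 and Top2a are 4 of the 12 genes without overlap between groups, and Ccnb1 and Bub1b are genes whose brightest probe was not lower. The choice shows no link between elements and response, which was not tested. Mki67, Hmmr and Tacc3, at -0.11, -0.07 and -0.13, also hold a CHR and 2 or more CCAAT boxes. Each printed window runs from 250 bases before to 50 bases after the RefSeq start on the gene's strand (GRCr8). Capitals mark every CHR (TTTGAA) and CCAAT box found on either strand, so that TTCAAA and ATTGG are the same elements read on the other strand.
Cdk1: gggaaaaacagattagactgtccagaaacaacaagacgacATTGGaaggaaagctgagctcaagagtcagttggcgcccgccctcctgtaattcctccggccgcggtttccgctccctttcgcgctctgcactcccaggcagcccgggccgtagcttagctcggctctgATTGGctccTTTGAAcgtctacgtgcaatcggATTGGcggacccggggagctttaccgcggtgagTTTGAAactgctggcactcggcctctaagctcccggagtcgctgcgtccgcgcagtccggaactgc
Ccnb2: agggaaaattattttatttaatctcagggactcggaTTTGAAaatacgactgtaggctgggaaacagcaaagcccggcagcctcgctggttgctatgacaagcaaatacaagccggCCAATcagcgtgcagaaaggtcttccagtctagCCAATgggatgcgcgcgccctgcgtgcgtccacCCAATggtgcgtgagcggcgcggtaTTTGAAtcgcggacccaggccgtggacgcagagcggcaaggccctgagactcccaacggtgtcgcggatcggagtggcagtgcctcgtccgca
Pttg1: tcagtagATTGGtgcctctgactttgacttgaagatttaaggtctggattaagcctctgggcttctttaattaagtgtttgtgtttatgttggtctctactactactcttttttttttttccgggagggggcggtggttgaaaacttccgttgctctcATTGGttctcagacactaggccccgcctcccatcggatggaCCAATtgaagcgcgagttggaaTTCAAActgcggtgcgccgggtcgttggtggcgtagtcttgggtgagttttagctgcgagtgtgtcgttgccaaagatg
Top2a: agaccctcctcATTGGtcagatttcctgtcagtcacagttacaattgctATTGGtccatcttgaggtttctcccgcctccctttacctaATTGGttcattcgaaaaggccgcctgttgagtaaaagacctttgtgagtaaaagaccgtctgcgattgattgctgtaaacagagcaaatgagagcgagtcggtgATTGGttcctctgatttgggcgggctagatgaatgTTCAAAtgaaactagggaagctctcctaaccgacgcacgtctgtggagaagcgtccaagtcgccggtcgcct
Ccnb1: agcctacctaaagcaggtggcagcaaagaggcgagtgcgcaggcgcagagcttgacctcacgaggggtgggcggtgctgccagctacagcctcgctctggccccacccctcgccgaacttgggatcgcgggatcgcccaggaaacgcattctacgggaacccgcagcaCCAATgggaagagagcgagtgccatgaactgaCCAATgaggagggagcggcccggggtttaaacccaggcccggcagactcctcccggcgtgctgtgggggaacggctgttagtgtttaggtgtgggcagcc
Bub1b: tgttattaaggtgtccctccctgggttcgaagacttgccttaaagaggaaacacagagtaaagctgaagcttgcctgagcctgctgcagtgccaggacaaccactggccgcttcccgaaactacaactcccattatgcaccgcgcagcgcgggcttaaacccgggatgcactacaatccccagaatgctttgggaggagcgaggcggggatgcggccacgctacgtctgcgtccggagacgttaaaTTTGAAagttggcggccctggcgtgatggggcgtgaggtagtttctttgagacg
These windows are chr20:19265043-19265342 (+) for Cdk1, chr8:79981609-79981908 (-) for Ccnb2, chr10:28406277-28406576 (-) for Pttg1, chr10:84473044-84473343 (-) for Top2a, chr2:33655176-33655475 (-) for Ccnb1 and chr3:126016817-126017116 (+) for Bub1b.

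The elements lie at varied distances from the start. In Cdk1 the CHR began at -72 and -16 and the CCAAT boxes at -210, -81 and -49. The Ccnb2 window holds a CHR at -214 and another at -43, with CCAAT boxes at -134, -101 and -68. In Pttg1 the CHR lies at -29 and the CCAAT boxes at -243, -92 and -51, and in Top2a the CHR lies at -22 and the CCAAT boxes at -239, -201, -161 and -57. The Bub1b window holds a CHR at -4 and no CCAAT box, and the Ccnb1 window holds 2 CCAAT boxes and no CHR. Promoter windows were found for 30 of the 37 genes. Of these, 22 hold a CHR (73.3%), against 18.1% of the 27457 rat promoters of the same length, and 24 hold a CCAAT box (80.0%), against 37.7%. A CHR together with 2 or more CCAAT boxes stands in 15 of the 30 windows and in 2.14% of all windows. Among the 9 genes without overlap between groups that have a window, 8 hold a CHR, 7 a CCAAT box and 5 a CHR with 2 or more CCAAT boxes. Bub1, a gene of these 9, holds neither element, as do Aurka and Fzr1, and Ckap2, which was not lower, holds both. The motifs were searched one by one, and a base can belong to both. A match is only a run of letters, and no binding was measured here.

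Cdk1 and its cyclins made up the role group with the lowest adjusted p. Cdk1, the kinase that triggers entry into mitosis, read 13.34, 13.16, 13.14 and 13.32 on Control arrays 1 to 4 and 12.70, 12.63, 12.70 and 12.40 on Dex arrays 1 to 4. The 2 groups lie 0.44 or more apart, and the log2 fold change was -0.64 ± 0.15 (SE), a change of -35.7% in signal (limma adjusted p = 0.13). Its probe lies at chr20:20057555-20057614 (rn3). Ccna2, the cyclin of S phase and early mitosis, read 12.11, 12.03, 11.91 and 12.04 in Control and 11.72, 11.58, 11.53 and 11.26 in Dex, without overlap (-0.50 ± 0.16, adjusted p = 0.278 by limma). Its dimmer probe did not overlap either (-0.63). Ccnb2, a B-type cyclin, read 11.43, 11.49, 11.38 and 11.40 in Control and 11.29, 11.29, 11.07 and 10.90 in Dex, again with the groups apart by little (-0.29 ± 0.15, adjusted p = 0.575 by limma).

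Its relative Ccnb1, the main partner of Cdk1 at the entry into mitosis, has 2 probes. The brighter probe read 11.96, 12.01, 11.72 and 11.89 in Control and 12.19, 11.98, 11.83 and 11.68 in Dex, so that the groups overlapped fully (0.03 ± 0.17, adjusted p = 0.97 by limma). The dimmer probe of the same gene read 9.60, 9.35, 9.13 and 9.29 in Control and 9.15, 9.09, 8.59 and 8.29 in Dex (-0.57 ± 0.23, adjusted p = 0.44 by limma). The direction of Ccnb1 thus depends on the probe.

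Ccnf, the F-box cyclin of a ubiquitin ligase, overlapped by a single pair of arrays, with 9.95 to 10.38 in Control and 9.49 to 9.98 in Dex (-0.53). Of the Cdc25 phosphatases, Cdc25b had -0.06 ± 0.14 and Cdc25c -0.43 ± 0.27. Cdc25a had the most negative value of all, -1.57 ± 1.31, but its probe exceeded background clearly on just 5 arrays, its values ran from 2.29 to 6.02 in Control and from 0.97 to 5.88 in Dex, and no difference was detectable at this signal. With normexp background correction its value was -0.30, smaller in size than the -0.67 of Cdk1.

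Among the mitotic kinases, Plk1, the polo kinase of spindle assembly and mitotic entry, read 13.28, 13.06, 13.29 and 13.45 in Control and 12.86, 12.68, 13.03 and 12.65 in Dex. Every Dex array lay below every Control array, with Control 2 and Dex 3 nearly touching (-0.46 ± 0.16, adjusted p = 0.345 by limma), and its other probe gave -0.41 with overlap. Plk4, the kinase that starts centriole duplication, read 7.52, 7.35, 7.44 and 7.66 in Control and 7.08, 7.49, 6.38 and 5.76 in Dex (-0.81 ± 0.36, adjusted p = 0.477 by limma). Dex 1, 3 and 4 lay below the Control range and Dex 2 within it, and the value was -0.51 without Dex 4 and -0.48 with normexp. Aurka, the Aurora kinase of the centrosome, read 10.18, 10.09, 9.72 and 9.46 in Dex, with Dex 1 inside the Control range of 10.13 to 10.37 and the other Dex arrays below it (-0.39).

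The spindle checkpoint genes had values on both sides of 0. Mad2l1, which with Bub1b inhibits Cdc20, read 11.17, 11.38, 10.92 and 11.08 in Control and 10.85, 10.69, 10.54 and 10.28 in Dex, without overlap (-0.55 ± 0.18, adjusted p = 0.316 by limma). Bub1, a kinase of the kinetochore, read 12.69, 12.50, 12.36 and 12.78 in Control and 12.27, 12.19, 12.30 and 12.13 in Dex, also without overlap (-0.36 ± 0.15, adjusted p = 0.459 by limma). Bub1b, which encodes BubR1, lay the other way, at 12.11, 11.91, 11.84 and 12.25 in Control and 12.40, 12.13, 12.25 and 11.98 in Dex. These groups overlap (0.16 ± 0.17, adjusted p = 0.794 by limma), and the other 2 probes of Bub1b gave 0.08 and -0.08. Bub3, the partner of Bub1 and Bub1b, had -0.09, and Ttk, the kinase that starts checkpoint signalling, had -0.30 with overlap. Whether Bub1b differs from Mad2l1 in its response was not tested.

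All 4 genes of the chromosomal passenger complex, which corrects faulty attachments and acts again in cytokinesis, had lower means with Dex. Incenp, its scaffold, read 12.49, 12.51, 12.26 and 12.46 in Control and 11.92, 11.83, 12.13 and 11.87 in Dex, without overlap (-0.49 ± 0.15, adjusted p = 0.257 by limma). Birc5, or survivin, had the largest difference of the complex, with 10.06, 10.86, 10.62 and 10.34 in Control and 10.14, 9.73, 9.93 and 9.42 in Dex (-0.66 ± 0.23, adjusted p = 0.353 by limma). Its groups overlapped through Control 1 and Dex 1, and within the slide that holds both groups its difference was only -0.13. Aurkb, the kinase of the complex, had -0.28, and Cdca8, or borealin, had -0.39 with Dex 1 and Dex 2 at 8.06 and 8.11, inside or above the Control range of 7.58 to 8.08, and Dex 3 and Dex 4 at 7.03 and 6.61.

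At the centromere, Cenpe, a motor that moves chromosomes to the spindle equator, read 7.68, 7.41, 7.40 and 7.85 in Control and 7.63, 7.49, 6.91 and 6.24 in Dex (-0.52 ± 0.31, adjusted p = 0.643 by limma). Dex 1 and Dex 2 lay within the Control range and Dex 3 and Dex 4 below it, and without Dex 4 the value was -0.24. Cenpf had -0.25 by its brightest probe and -0.66 by the other, or -0.13 and -0.29 with normexp.

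Of the genes of the APC and mitotic exit, both parts of the anaphase switch had lower means with Dex, though neither passed the adjusted threshold. Pttg1, the securin that blocks separase, read 14.16, 14.02, 13.95 and 14.20 in Control and 13.78, 13.70, 13.70 and 13.33 in Dex (-0.45 ± 0.16, adjusted p = 0.35 by limma). Espl1, separase itself, which cuts cohesin, read 12.38, 12.39, 12.28 and 12.59 in Control and 12.13, 11.80, 12.16 and 11.91 in Dex (-0.41 ± 0.16, adjusted p = 0.388 by limma). Neither gene had an overlap between groups. Cdc20, the activator of the APC in early mitosis, had -0.25 and the ubiquitin-conjugating enzyme Ube2c -0.41, both with overlap. Fzr1, the activator that takes over in late mitosis and G1, ran from 8.24 to 8.57 in Control and from 8.11 to 8.76 in Dex (0.03 ± 0.20, adjusted p = 0.969 by limma), and had -0.22 within slide 1. Whether it differs from Cdc20 was not tested.

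Top2a, the topoisomerase that untangles sister chromosomes, read 14.17, 14.19, 14.15 and 14.37 in Control and 13.61, 13.49, 13.93 and 13.64 in Dex. Its groups did not overlap (-0.55 ± 0.16, adjusted p = 0.218 by limma), and neither did those of its other probe, at -0.57. Mki67, the proliferation marker of the chromosome surface, had 11.18 to 11.54 in Control and 11.02 to 11.45 in Dex (-0.11 ± 0.18, adjusted p = 0.881 by limma), with overlap. Within the slide that holds both groups, Mki67 had 0.26 and Top2a -0.25. Whether Top2a and Mki67, both used as markers of cycling cells, differ in their response was not tested.

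In the spindle and cytokinesis group, Tpx2, the microtubule-bound activator of Aurka, read 10.60, 10.71, 10.62 and 10.68 in Control and 10.23, 10.16, 10.25 and 9.85 in Dex. The Control arrays span 0.11 and all Dex arrays lie below them (-0.53 ± 0.15, adjusted p = 0.226 by limma). Ect2, the exchange factor that starts the cleavage furrow, read 11.87, 11.81, 11.97 and 12.14 in Control and 11.64, 11.61, 11.66 and 11.17 in Dex, also without overlap (-0.43 ± 0.17, adjusted p = 0.419 by limma). Its dimmer probe did overlap, with 5.44 to 6.16 in Control and 5.20, 6.52, 4.89 and 3.35 in Dex, and gave -0.81, or -0.17 with normexp. Racgap1, its partner at the midzone, had -0.16. Prc1, which bundles the midzone microtubules, read 8.11, 8.13, 7.61 and 8.09 in Control and 8.02, 7.94, 6.93 and 6.74 in Dex (-0.58 ± 0.33, adjusted p = 0.617 by limma), and only Dex 3 and Dex 4 lay below the Control range. The value was -0.35 without Dex 4, -0.36 with normexp and -1.17 within slide 1, the slide that holds an array of each group. Tacc3, a protein of spindle microtubules, had -0.13 with the same split, and Ckap2, a microtubule protein, had 0.02 ± 0.20. Foxm1, the transcription factor that drives many of these genes, read 11.90, 11.79, 11.99 and 12.23 in Control and 11.82, 11.50, 11.66 and 11.50 in Dex, where Dex 1 lay above the lowest Control array (-0.36 ± 0.16, adjusted p = 0.499 by limma).

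**Figure D2:**
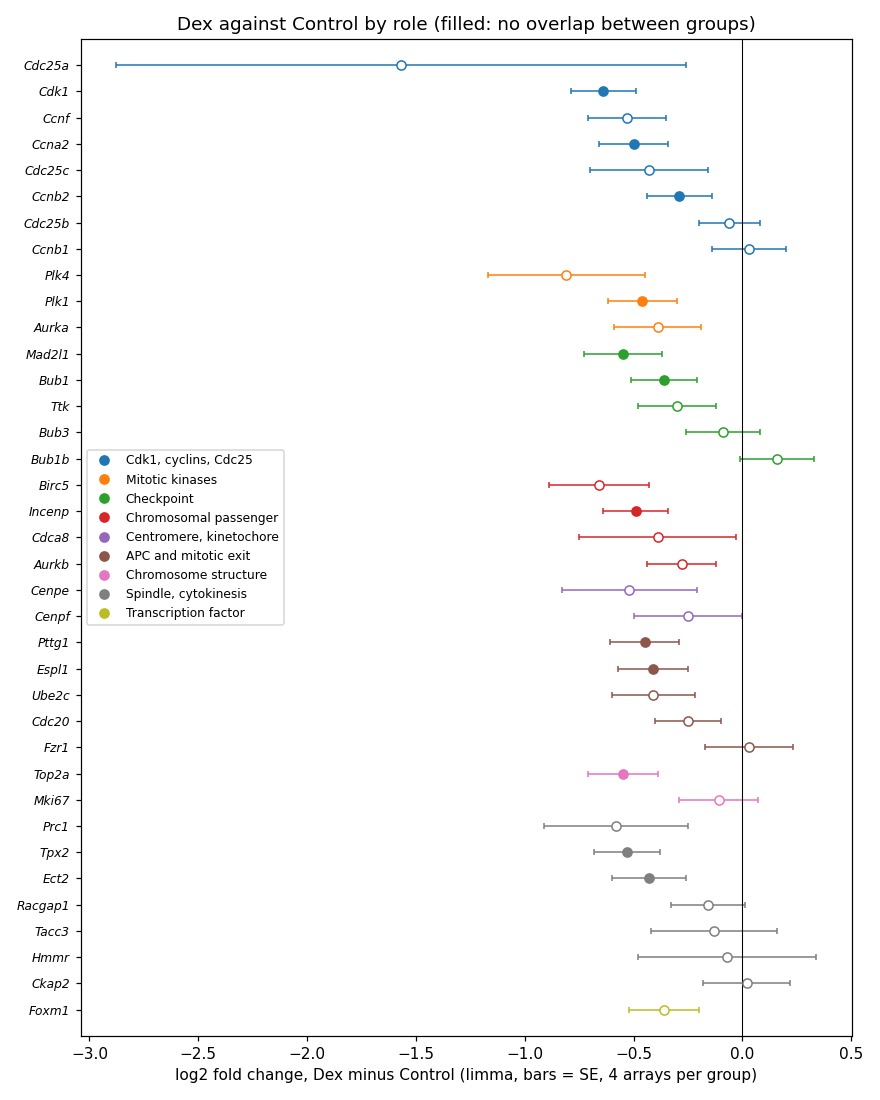
Log2 fold change, Dex minus Control, of each of the 37 genes with its SE (limma, 4 arrays per group), colored by role. Filled points are the 12 genes whose groups do not overlap. All but Ccnb1, Bub1b, Fzr1 and Ckap2 lie left of 0, and Cdc25a has by far the widest error.

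The Dex arrays were also compared among themselves for bright and dim probes. For the 26 genes with a mean log2 signal of 10 or more, the median distance from the Control mean was -0.24, -0.36, -0.29 and -0.54 on Dex arrays 1 to 4. For the 11 dimmer genes it was 0.05, -0.03, -0.65 and -1.05. Over the 18230 probes under 10 that are well above background on all arrays, the medians were 0.13, 0.19, -0.19 and -0.19, and over the 5757 brighter ones 0.02, 0.03, -0.09 and -0.11. The bright genes of the set were thus lower in all 4 Dex arrays, at 20 to 25 of 26 genes below the Control mean per array. The dim ones were lower in Dex 3 and Dex 4 (10 and 11 of 11 genes). In Dex 1 and Dex 2 the dim genes lay near the Control mean (3 and 6 of 11 below it), where the medians of all dim probes lay above it. Of all bright probes 46.6%, 46.0%, 63.4% and 64.8% lay below the Control mean on Dex 1 to 4, and of all dim probes 38.8%, 37.7%, 61.8% and 59.5%, so that Dex 3 and Dex 4 were the lower arrays for probes in general too. The normexp background treatment adds an offset of 50 before the log, which by itself shrinks fold changes of dim probes most. With it the dim genes moved more than the bright ones. Their median log2 fold change of -0.43 was -0.25 with normexp, with Cdc25c at -0.23 and Cdca8 at -0.23 there, while that of the bright genes was -0.38 and -0.36.

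The arrays that part in this way also part in other measures. Dex 1 and Dex 2 had the fewest probes well above background, 26471 and 24908, against 33284 and 33402 for Dex 3 and Dex 4, and a 75th percentile of the raw signal of 425 and 401 against 266 and 264. Over all arrays these measures were 24908 to 34472 probes and a signal of 264 to 428. No difference between the groups was detected in either (two-sided exact permutation test over 70 assignments, p = 0.314 and p = 0.286, where the smallest possible p is 0.0286). With 4 arrays per group this does not show that they are alike. The part of these measures in the results was not tested. The slides do not follow this split. Control 1 and Dex 3 lie on slide 1, Control 2, 3 and 4 on slide 2, and Dex 1, 2 and 4 on slide 3, so that outside slide 1 slide and group cannot be told apart. On slide 1, Dex 3 was below Control 1 for 33 of the 37 genes, with a median of -0.36. Among the 36 genes above background on all arrays it was 32, against 62.8% of all probes so measured. The 12 genes without overlap between groups ranged from -0.64 for Cdk1 to -0.21 for Ect2, and Espl1, Plk1 and Top2a had -0.22, -0.25 and -0.25, all smaller than over all arrays. The median on slide 1 was -0.25 for the 26 bright genes and -0.77 for the 11 dim ones.

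**Figure D3:**
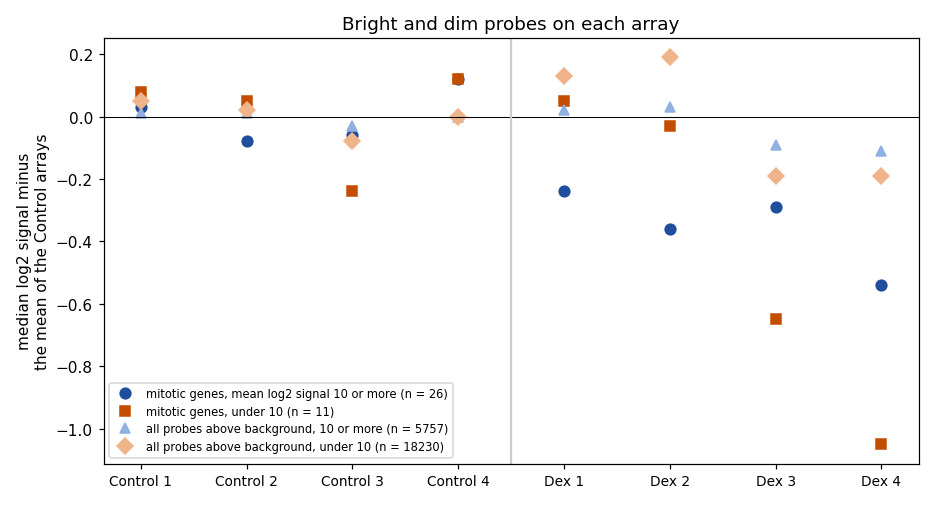
Median log2 signal on each array, minus the mean of the Control arrays, for mitotic genes and for all probes well above background, split at a mean log2 signal of 10. Bright mitotic genes (blue circles) are below 0 on all Dex arrays, at -0.24 to -0.54, and dim ones (orange squares) only clearly so on Dex 3 and Dex 4, at -0.65 and -1.05.

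Of the 37 genes, 11 have more than 1 probe, and for 9 of them all probes gave the same sign. Ccnb1 and Bub1b did not. The largest disagreement in value was in Hmmr, a protein of spindle microtubules. The first 30 bases of each of the Ccnb1 and Hmmr probes, which are 60 bases long, show that the pairs are different stretches of the same genes.
Ccnb1 brighter probe: ctaagaacatagtcatggtgaaccgtggcc
Ccnb1 dimmer probe: ctcaactcatttgaatgtggttgcttctga
Hmmr brighter probe: cccactattttgctacatagacgggttgat
Hmmr dimmer probe: gagaaaataactgatttgcaaaatcaactc
On rn3 the Ccnb1 probes lie at chr2:31495178-31495417 and chr2:31494914-31494972, and the Hmmr probes at chr10:25748532-25748591 and chr10:25740442-25740501, in the same order, all on the minus strand.

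The brighter Hmmr probe read 10.26, 9.98, 10.21 and 9.80 in Control and 9.32, 9.17, 10.65 and 10.84 in Dex, so that Dex 1 and Dex 2 were below all Control arrays and Dex 3 and Dex 4 above them (-0.07 ± 0.41, adjusted p = 0.969 by limma). The dimmer probe read 5.95, 5.64, 5.35 and 5.29 in Control and 5.06, 5.65, 3.99 and 3.04 in Dex (-1.12 ± 0.53, adjusted p = 0.516 by limma), but only -0.34 with normexp, where the brighter probe had -0.04. On Dex 3 and Dex 4 the 2 probes of this gene thus went opposite ways, and the data give no single direction for Hmmr. In contrast, both probes of Ccna2, Plk1 and Top2a were lower to a like degree.

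**Figure D4:**
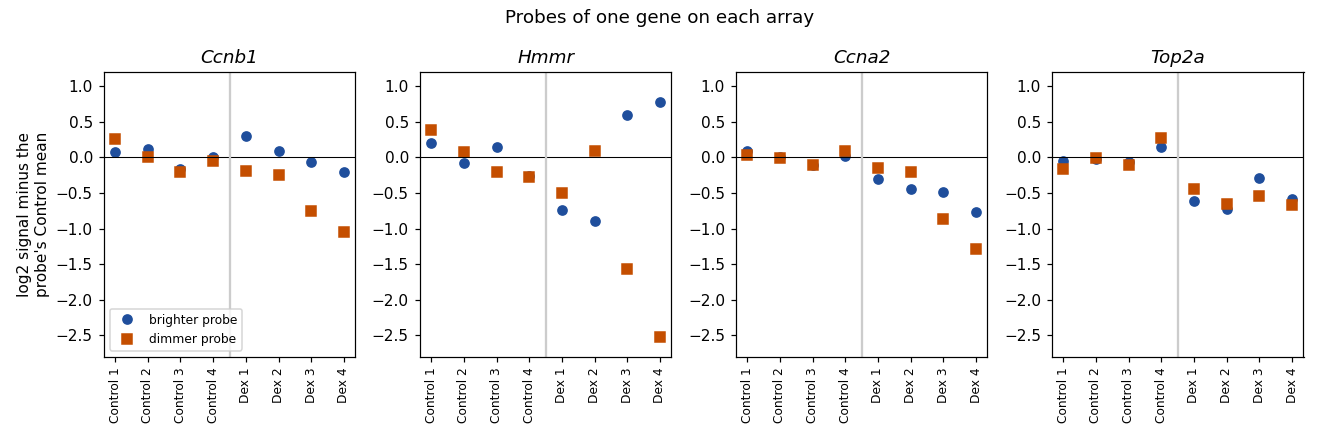
Log2 signal of both probes of Ccnb1, Hmmr, Ccna2 and Top2a on each array, minus that probe's mean over the 4 Control arrays. The probes of Top2a run together (-0.55 and -0.57), those of Ccnb1 part on the Dex arrays, and those of Hmmr go opposite ways on Dex 3 and Dex 4.

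The 9 genes found under older names had a median of -0.11, with 8 below 0, beside 52.4% of probes above background on every array. With scaling to the 75th percentile 6 of 9 lay below 0, and within slide 1 also 6. By limma 0 of 9 had an unadjusted p under 0.05, and 0 had groups without overlap, beside 4.92% and 4.51% of all probes that were lower by these measures. Whether they differ from the 37 genes was not tested. Nuf2 (Cdca1 on the array) had -0.32 and Ndc80 (Kntc2), both of the kinetochore complex that holds microtubules, -0.11. The centromeric histone Cenpa had -0.04, and the Cdk-binding proteins Cks1b and Cks2 had -0.30 and -0.01. Of the condensin genes, Smc4 had 0.05 and Ncapd2 -0.05 by their brightest probes, the dim Smc2 had -0.39, and the dim Ncapg had -0.67 ± 0.60, with Dex 3 and Dex 4 at 4.45 and 3.47 and the other arrays at 5.31 to 6.23. With normexp Smc2 had -0.06 and Ncapg -0.16.

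A second list of mitotic genes outside the 49, of kinetochore, cohesin, condensin, APC and spindle genes, was read in the same way. Of its 88 genes 70 were found, 58 of them below 0 (against 52.4% of all probes above background on every array), with a median of -0.33. By limma 0 of 70 passed the adjusted threshold, 16 were lower and 1 higher at an unadjusted p under 0.05, and 14 had all Dex arrays below all Control arrays, beside 4.92%, 5.63% and 4.51% of all probes. With the replicate number as a block, Dlgap5, Spag5 and Ncapd3 no longer passed the unadjusted threshold, and Sgo2 newly did so as lower. The gene that was higher was Wee1, the kinase that keeps Cdk1 inactive by phosphorylation. It read 10.63, 10.24, 10.77 and 10.70 in Control and 11.43, 11.34, 11.24 and 10.88 in Dex, with every Dex array above every Control array (0.64 ± 0.19, adjusted p = 0.264 by limma). The other 4 genes with the smallest p were lower and did not overlap. The kinetochore genes Cenpq and Spc25 had -0.64 and -0.57, the cohesin subunit Rad21 -0.45 and the kinase Melk -0.44, with adjusted p from 0.169 to 0.339 by limma.

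Other cells in the cultures were read through marker lists. Markers of double positive thymocytes were strong, with 12 of 13 found and all 12 above background on every array, and their summed log2 level, without Cd8b, which has a missing value, was 18.25 to 18.40 in Control and 17.90 to 18.40 in Dex. The summed levels overlapped between groups for macrophages (12.13 to 12.59 and 12.09 to 13.10), B cells (11.11 to 12.15 and 11.18 to 12.37), stromal cells (11.88 to 12.37 and 12.18 to 12.66) and erythroid cells (8.58 to 10.49 and 9.03 to 11.24). By limma 0 of the 41 genes measured from these 5 lists had an adjusted p under 0.05, and at an unadjusted p under 0.05 there were 3 lower and 5 higher, beside 4.92% and 5.63% of all probes. With the replicate number as a block these counts were 5 and 7. Their median log2 fold change was -0.19, 0.16, 0.01, 0.48 and 0.51 in the order given, and that of the stromal list was 0.11 with normexp. The sums are carried by the brightest probes, and single markers spread widely. Of 10 macrophage markers 4 lay below 0, from -0.77 for Cd14 to 2.12 for Mrc1, and of 10 stromal markers 1, from -0.76 for Col1a2 to 1.72 for Pdgfrb. The macrophage receptor Mrc1 read 4.00, 3.37, 4.91 and 3.59 in Control and 6.81, 6.28, 6.05 and 5.20 in Dex, without overlap (2.12 ± 0.43, adjusted p = 0.087 by limma), but its value was 0.68 with normexp background correction. The complement genes C1qb and C1qc of macrophages had 0.84 and 0.97. The stromal receptor Pdgfrb, above background on 5 arrays, also had all Dex arrays above all Control arrays, and its 1.72 was 0.31 with normexp. Of 12 thymocyte markers 9 lay below 0, from -0.70 for Cd5 to 0.52 for Cd8b. Cd5 and Ptcra (-0.61) had all Dex arrays below all Control arrays, which held for 4.51% of all probes, and Rag1 had -0.59. Cd8b, with 1 Control value missing, had all Dex arrays above every measured Control array. These 10 genes were named after their values were seen. The stromal markers Pdgfra and Dcn were above background on 0 arrays and the B cell marker Ms4a1 on 2. The part of other cells in the lower mitotic signal was not tested.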

How the data were processed

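The arrays were scanned by the authors with Agilent Feature Extraction, and the deposited scanner output gives each spot's processed intensity, after background subtraction and before any scaling between arrays, with 0 or 1 flags for spots above background, saturated or outlying. The authors also deposited log2 values, quantile normalized and summarized per probe by median polish. Of 43379 spots per array, outlier spots were left out (16 missing values) and no spot was saturated. The same steps were repeated here from the intensities for 41012 probes, and the result correlated with the deposited log2 table at 0.999999 or more.

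Dex was compared with Control by limma (version 3.58.1, R 4.3.3; lmFit and eBayes, two-sided, no block, Benjamini-Hochberg over all probes), tested on simulated data. Named are genes whose groups do not overlap, the largest difference of each role group among probes above background on every array of a group, genes above 0 on probes above background on all arrays, and for the second list the 5 smallest p. No gene was named by an adjusted p under 0.05, since none passed. The members and lists were chosen with earlier results of these data known.

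Controls and Dex cultures carry numbers 1 to 4, although the methods speak of 3 biological replicates, and every array was used. Across probes, departures from the mean of the group had correlations of 0.397, 0.129, 0.55 and 0.184 between same numbers, all over 0.1, so a fit with the number as a block was run beside the unpaired fit that gives the printed values, although Control 1 with Dex 2 reached 0.401 and Control 3 with Dex 4 0.391. The labels do not say whether the samples were separate preparations, so p-values cover the spread between these samples, which may be technical. The number of arrays limits the precision. Older names were matched through RefSeq's rat gene table, and promoters come from RefSeq (GRCr8). Probe positions are those of the scanner files (rn3), and no annotation of that build was used. Alternatives were 75th percentile scaling, normexp with an offset of 50, leaving out dim probes, replicate and slide blocks, the deposited table, the mean of a gene's probes, the signal to noise statistic and leaving out each array.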

Additional observations from a re-analysis of the deposited data

Results flagged for a closer look

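In 74 groups of 4 arrays (37 genes, Control and Dex), 5 held an array whose gap to its nearest neighbour took up more of the group's range than Dixon's limit allows, where chance alone flags about 1 group in 20. On Dex 4, Aurkb read 9.60 against 9.92 to 9.98 on the other Dex arrays (gap over range 0.845), Ect2 read 11.17 against 11.61 to 11.66 (0.89) and Ckap2 read 10.78 against 11.26 to 11.35 (0.851). On Control 3, Prc1 read 7.61 against 8.09 to 8.13 on the other Control arrays (0.927) and Tacc3 read 8.98 against 9.38 to 9.46 (0.837). All 5 arrays that stood apart were the lowest of their group.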

How the results depend on the processing

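The median log2 fold change of the 37 genes kept its sign under every setting, from -0.30 to -0.47 over leaving out each array and from -0.33 to -0.41 over the others, and -0.39 with the replicate block. Members called, 0 by limma, numbered 1 (Cdk1) with normexp, 4 (Cdk1, Incenp, Top2a and Tpx2) with the slide as a random block, 12 by the signal to noise statistic of the study and 13 at an unadjusted p under 0.05, and 0 to 0 without any single array. The second mitotic list, also 0, gave 1, 2, 9 and 17 in the same order. Over all probes the count of 319 was 166 with 75th percentile scaling, 915 with normexp, 562 without dim probes and 81 with the replicate block. It was 1838 with the slide as a random block, 2784 by signal to noise and 4327 at an unadjusted p under 0.05. Without single arrays it ran from 96 (without Control 4) to 249 (without Dex 3). The random block fit estimated a negative correlation within slides (-0.235), while outside slide 1 each slide holds a single group. Its calls, of single genes as of all probes, are thus not firm evidence. The replicate block changed no call at an adjusted p under 0.05 in either list; at an unadjusted p under 0.05 it left 10 of 13. Of 315 values of the named genes refitted by limma, 298 kept direction and side of the adjusted threshold, 5 newly passed it (the calls with normexp and with the slide as a random block given above) and 12 changed sign. Of 27 values with no test, within slide 1 or as means of probes, 24 kept their sign and 3 did not. All sign changes were among Ccnb1, Fzr1 and Ckap2. By signal to noise, at its own threshold, 11 of the 21 named genes were called, where 3.20% of all probes were called lower. All 11 are among the 12 genes named because their groups do not overlap in these same arrays, so this count is no separate evidence. With the slide as a fixed block the estimate rests on slide 1 alone, with 1 array of each group, and repeats the difference within slide 1. There Ccnb1 had -0.13 and Fzr1 -0.22. Ccnb1 had -0.27 as the mean of its probes, and Ckap2 -0.002 with the slide as a random block. Without single arrays Ccnb1 ran from -0.06 to 0.11, Fzr1 from -0.071 to 0.15 and Ckap2 from -0.083 to 0.15. The causes were not tested. Cdc25a, above background on 5 arrays, and the other dim probes limit what these arrays can show.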

Other observations

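The second mitotic list was also counted by complex. Differences between these groups were not tested, and 52.4% of all probes above background on every array lay below 0. All 9 measured genes of CENP centromere proteins lay below 0, with a median log2 fold change of -0.33, from -0.04 for Cenpb to -0.92 for Cenpi. The Cenpi probe is dim, and its value was -0.45 with normexp. All 7 measured genes of cohesin and its regulators also lay below 0, from -0.02 for Smc1a to -0.45 for Rad21 (median -0.25). Of 3 condensin genes 2 lay below 0, with a median of -0.29. The 10 measured subunits of the APC, which most cells keep throughout the cycle, were spread around 0, with 6 below it, a median of -0.09 and a range from -0.43 for Cdc27 to 0.43 for Anapc4. At an unadjusted p under 0.05 by limma there were 2 of the 9 CENP genes, 1 of the 7 cohesin genes, 1 of the 3 condensin genes and 0 of the 10 APC genes, where 4.92% of all probes were lower and 5.63% higher at that threshold. With the replicate number as a block the condensin gene, Ncapd3, no longer passed, which leaves 0 of 3, and the other counts were as before. Below 0 lay 8 of the 9 CENP genes with scaling to the 75th percentile, and within slide 1 there were 5 of the 7 cohesin, 9 of the 10 APC and 3 of the 3 condensin genes.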
